A study of Mus musculus with 6 samples.

Results

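The glutathione transferases and the UDP-glucuronosyltransferases of mouse liver were followed in HFC-fed mice on 6 arrays. Members were taken by name. They were all genes with a symbol of the cytosolic classes alpha, mu, pi, theta, omega and zeta (Gsta, Gstm, Gstp, Gstt, Gsto and Gstz). Genes of the kappa class (Gstk), the microsomal class (Mgst) and the Ugt1, Ugt2 and Ugt3 families were taken as well. This gave 33 genes, 23 glutathione transferases and 10 glucuronosyltransferases, of 16887 named genes on the array. The set itself was chosen with earlier results of these data known. All mice were C57BL/6, aged 7 weeks at the start, and were kept on their diet for 12 days. The 3 groups were 2 HFC-fed mice given lovastatin at 30 mg/kg, 2 HFC-fed mice given fenofibrate at 100 mg/kg, and 2 HFC-fed mice given vehicle, the HFC group. HFC is the labels' name for the diet, which sample titles also call high fat. Dosing was by mouth each day from day 5. Each mouse was hybridised on its own 2-colour array against 1 pool of liver RNA from 6 chow-fed mice given vehicle, so the pool is 1 control sample with no spread of its own. For the lovastatin mice the labels conflict: titles and source names say lovastatin and were followed, whereas the treatment field says fenofibrate.

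Glutathione transferases join the tripeptide glutathione to electrophilic compounds, among them reactive drug metabolites and aldehydes from oxidised lipid. UDP-glucuronosyltransferases sit in the endoplasmic reticulum and transfer glucuronic acid to bilirubin, steroids, bile acids and drugs. Both reactions make compounds more water-soluble for export into bile or blood, and liver is a main site of each.

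Values are ratios of mouse over pool, taken as log2, so that 0 means the level of the chow pool. Channel 1 is the mouse in every sample's labels, so this direction is likely but not stated. Lovastatin and HFC mice were labelled with Cy5 and fenofibrate mice with Cy3, and for a single gene the drug and the dye cannot be told apart. Fewer cells of a type and less RNA per cell cannot be told apart in whole liver either.

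On HFC replicate 2, 4 blocks of the array hold values displaced from their spots, 50.3% of the probes used. Values in these blocks were set missing for that array. In this way 13 of the 33 members have 1 HFC value instead of 2, and their HFC figures rest on replicate 1. Each block was also rotated by the number of whole columns that correlated best with the mean of the other arrays, lovastatin replicate 1 left out. The put-back values so obtained lay within the range of the other 5 arrays for 11 of these 13 members, against 3 of 13 as deposited. The rotation was picked to match those arrays, so these counts are no test of it. Lovastatin replicate 1 was the widest array, with an SD over all probes of 1.09 against 0.419 to 0.725 on the other 5. Hepatocyte markers were below 0 in the mean of every array, from -0.73 to -0.22 over 7 measured genes, of which 4 had a value on HFC replicate 2. Single values above 0 were 0.61 for Hnf4a on HFC replicate 2 and 0.01 for Cps1 on fenofibrate replicate 2. Albumin lay between -1.36 and -0.47 on the 5 arrays other than HFC replicate 2, where it had no usable value. Means of the Kupffer cell list ran from -0.53 to 0.42 and those of the lymphocyte, cholangiocyte, stellate and endothelial lists from -0.59 to 0.41, and the part of any of these in the results was not tested.

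Promoter sequence is shown for 4 genes, the called members Gstm1 and Gstm3 and the neighbours Gstp1 and Gstp3, whose shared ratios lay on opposite sides of 0. Each holds the 250 bases before the start of transcription, 5′ to 3′ on the gene's strand, from the RefSeq promoter table (GRCm38.p6). They are Gstm1 at chr3:108017974-108018223, Gstm3 at chr3:107969175-107969424, Gstp1 at chr19:4037913-4038162 and Gstp3 at chr19:4059448-4059697, all on the minus strand. The table lists another start for Gstm1 further into the gene, and the stretch before the outer start is printed. Capitals mark TGACNNNGC or TGAGNNNGC on either strand, the core letters of the antioxidant response element that NRF2 binds.
Gstm1: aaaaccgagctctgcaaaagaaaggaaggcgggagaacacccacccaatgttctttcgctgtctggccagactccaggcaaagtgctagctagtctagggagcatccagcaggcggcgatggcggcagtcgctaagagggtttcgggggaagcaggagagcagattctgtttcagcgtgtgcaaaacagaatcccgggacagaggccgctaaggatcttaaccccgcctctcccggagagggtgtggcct
Gstm3: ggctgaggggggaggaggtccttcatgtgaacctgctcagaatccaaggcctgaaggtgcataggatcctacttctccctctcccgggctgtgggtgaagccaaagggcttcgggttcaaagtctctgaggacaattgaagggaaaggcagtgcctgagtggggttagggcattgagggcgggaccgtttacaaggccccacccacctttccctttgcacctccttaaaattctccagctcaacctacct
Gstp1: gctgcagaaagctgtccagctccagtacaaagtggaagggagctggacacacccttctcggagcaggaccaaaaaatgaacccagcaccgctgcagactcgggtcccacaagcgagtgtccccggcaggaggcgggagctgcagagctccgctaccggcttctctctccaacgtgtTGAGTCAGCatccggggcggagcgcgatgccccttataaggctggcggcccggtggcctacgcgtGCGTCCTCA
Gstp3: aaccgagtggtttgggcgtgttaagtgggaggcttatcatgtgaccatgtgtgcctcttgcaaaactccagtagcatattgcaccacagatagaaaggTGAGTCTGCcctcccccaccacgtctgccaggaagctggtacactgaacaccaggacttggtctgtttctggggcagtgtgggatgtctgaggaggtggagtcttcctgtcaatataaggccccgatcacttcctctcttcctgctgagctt
The capitals appear in both pi-class stretches and in neither mu-class stretch. Over all 29 members found in the table, 11 of 38 promoter windows (28.9%) held one of the 2 motifs, against 27.8% of 32851 windows in the table, which run from 250 bases before the start to 50 after it. These matches are letters only and were not tied to binding.

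**Figure D1:**
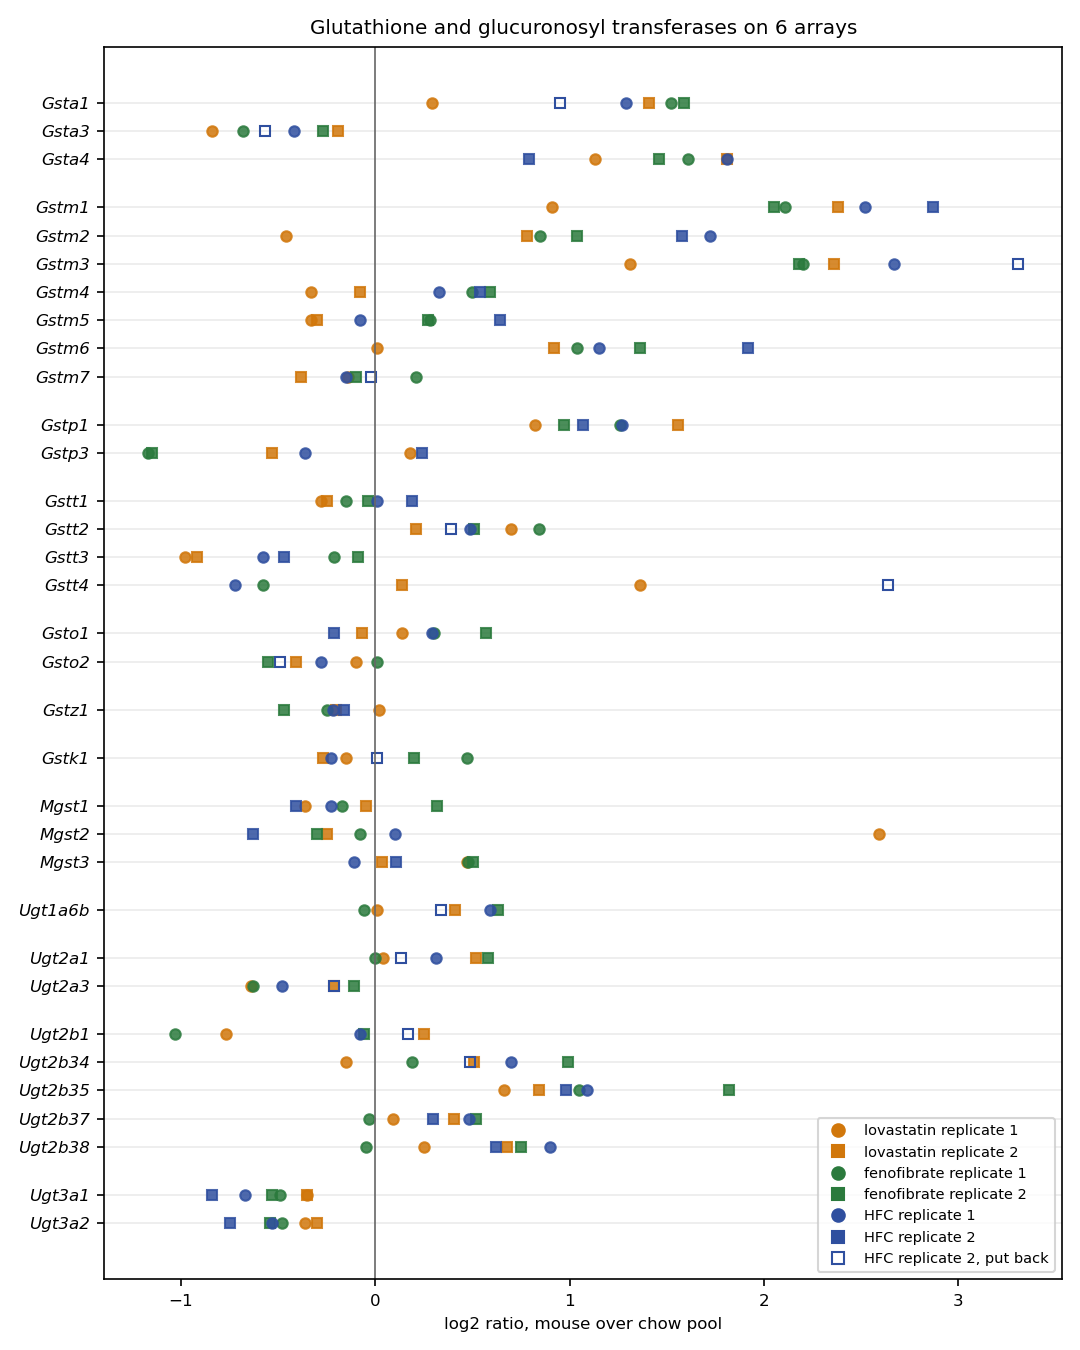
Log2 ratio of mouse over chow pool (horizontal axis) for the 33 members, grouped by class, with 1 point per array. Open squares are HFC replicate 2 values put back and not used in the fit. Gstm1, Gstm3, Gsta4, Gsta1, Gstp1 and Ugt2b35 lay above 0 on each array used, and Ugt3a1, Ugt3a2 and Gstt3 lay below 0 on all 6.

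The first comparison asked what the HFC-fed livers shared against the chow pool. It weights lovastatin and HFC by 0.25 each and fenofibrate by 0.5, so that both dye orientations count equally. By limma 2 of the 33 members passed at an adjusted p under 0.05, Gstm1 and Gstm3, both higher, against 0.566% of 19447 features in either direction. Without the adjustment, 17 of 33 members had p under 0.05, against 10.8% of all features. The median over the members was 0.24 and that of all features 0.0075. The median size of the difference, whatever its sign, was 0.41 for the members and 0.17 for all features. On every array used, 8 of 32 members with at least 5 values lay above 0, against 7.23% of 19078 such features, and 5 of 32 lay below 0, against 7.12%. The set was chosen with earlier results of these data known, so these shares describe it and do not test it. Members of a class are close in sequence and the probes' sequences were not used here, so signal shared between relatives was not tested.

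The largest ratios of mouse over pool, in the direction taken here, were those of the mu genes Gstm1 and Gstm3. Gstm1, a mu-class enzyme abundant in mouse liver, was at 0.91 and 2.38 in lovastatin mice, 2.11 and 2.05 in fenofibrate mice and 2.52 and 2.87 in HFC mice. Gstm3, in the same gene cluster with Gstm2 between them, was at 1.31 and 2.36 in lovastatin mice, 2.20 and 2.18 in fenofibrate mice and 2.67 in HFC replicate 1. Both lay well above 0 on each of their arrays, with lovastatin replicate 1 the lowest. Gstm1 rose by 2.12 (SE 0.223, limma adjusted p = 0.0377), a 4.36-fold ratio with a 95% interval from 2.96 to 6.43. Gstm3 rose by 2.22 (SE 0.204, limma adjusted p = 0.0465), a 4.66-fold ratio (3.19 to 6.82), in a fit that lacks HFC replicate 2. The value of Gstm3 turns on how the displaced array is treated. With the displaced blocks put back, HFC replicate 2 was at 3.31 and Gstm3 at 2.30 (limma adjusted p = 0.0115). As deposited, that array's value was -1.51, and Gstm3 was then at 1.70 (limma adjusted p = 0.378). Both calls were sensitive to single arrays. The call of Gstm1 ended without either fenofibrate array or either HFC array, at values from 2.08 to 2.17. The call of Gstm3 ended without either fenofibrate array or without HFC replicate 2, although HFC replicate 2 gives this gene no value. In each of these fits a group rests on 1 array and calls fell over all features too. The losses are thus not particular to these genes. Without HFC replicate 1 Gstm3 could not be fitted, and with quantile normalization it was at 2.47 (limma adjusted p = 0.0535). If the fenofibrate ratios run the other way, 0 of 33 members and 0 of 19447 features passed, and Gstm1 was at 0.045 and Gstm3 at 0.031. If the values are natural logs, the folds become 8.37 for Gstm1 and 9.22 for Gstm3. Gstm1 and Gstm3 differed from each other by 0.02 to 0.40 on the 5 arrays where both have a value.

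Gstm6 and Gstm2 lay below this pair. Gstm6 was at 0.01 and 0.92 in lovastatin mice, 1.04 and 1.36 in fenofibrate mice and 1.15 and 1.92 in HFC mice. Gstm2 was at -0.46 and 0.78 in lovastatin mice, 0.85 and 1.04 in fenofibrate mice and 1.72 and 1.58 in HFC mice. Lovastatin replicate 1 stood below the other 5 arrays in both genes, and Gstm6 was above 0 on all 6. Their shared ratios were 1.10 for Gstm6 (SE 0.191, limma adjusted p = 0.114) and 0.93 for Gstm2 (SE 0.194, limma adjusted p = 0.174), so neither passed. Gstm4 was at -0.33 and -0.08 in lovastatin mice, 0.50 and 0.59 in fenofibrate mice and 0.33 and 0.54 in HFC mice. Its lovastatin values were both below 0 and its other 4 values above 0. The remaining mu genes, Gstm5 and Gstm7, had array values from -0.38 to 0.64 and shared ratios of 0.13 and -0.075.

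In the order of the RefSeq gene table (GRCm38.p6), the mu genes run Gstm5, Gstm7, Gstm6, Gstm3, Gstm2, Gstm1 and Gstm4 along chromosome 3. The 4 with the largest ratios, Gstm6, Gstm3, Gstm2 and Gstm1, stand next to each other among the mu genes measured. Gstm5, Gstm7 and Gstm4, at the ends of the row, had group means between -0.32 and 0.55.

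**Figure D2:**
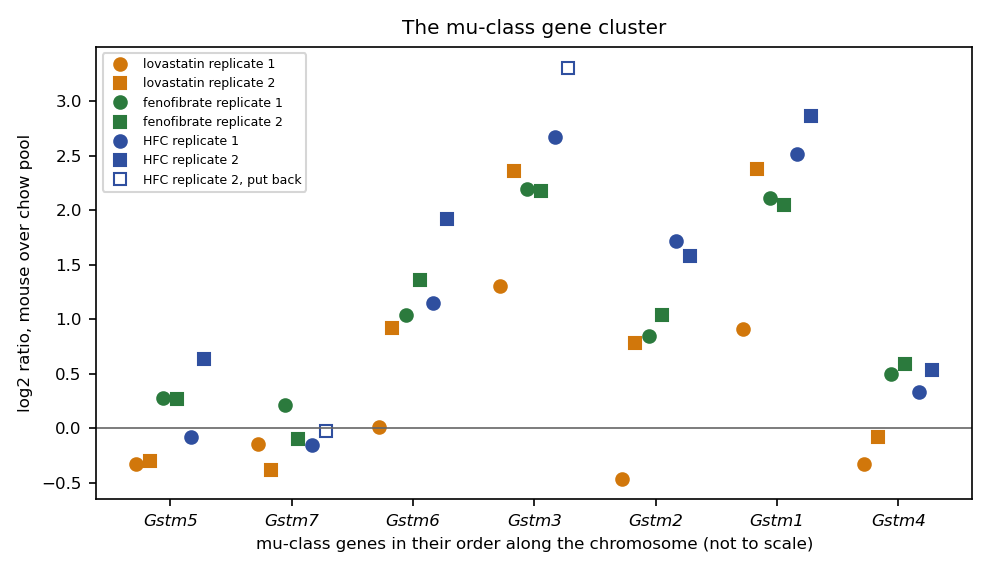
Log2 ratio of mouse over chow pool (vertical axis) for the 7 mu-class genes in their order along the chromosome, 1 point per array, with put-back HFC replicate 2 values as open squares. Gstm6, Gstm3, Gstm2 and Gstm1 stand above the genes at either end, and lovastatin replicate 1, the widest array, is the lowest in 6 of the 7 genes.

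Among the alpha-class genes, 2 lay above 0 and 1 below. Gsta4, which conjugates hydroxynonenal, an aldehyde from oxidised lipid, was at 1.13 and 1.81 in lovastatin mice, 1.61 and 1.46 in fenofibrate mice and 1.81 and 0.79 in HFC mice. Gsta1, a class member that conjugates a broad range of electrophiles, was at 0.29 and 1.41 in lovastatin mice, 1.52 and 1.59 in fenofibrate mice and 1.29 in HFC replicate 1. Both were above 0 on each array used, with the lowest value on HFC replicate 2 for Gsta4 and on lovastatin replicate 1 for Gsta1. The shared ratio was 1.46 for Gsta4 (SE 0.191, limma adjusted p = 0.0602) and 1.31 for Gsta1 (SE 0.213, limma adjusted p = 0.139, without HFC replicate 2), so neither passed. The array carries Gsta4 on 10 spots, 5 of them in the displaced blocks, and the deposited table gives all 10 the same value on each array. On HFC replicate 2 the 5 displaced spots put back ranged from 0.08 to 1.66 with a median of 1.33, against the 0.79 listed. With the blocks put back Gsta4 was at 1.48 and passed (limma adjusted p = 0.0313), where 0.982% of all features passed.

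Gsta3, the alpha enzyme known in mouse for conjugating the epoxide of aflatoxin, went the other way. It was at -0.84 and -0.19 in lovastatin mice, -0.68 and -0.27 in fenofibrate mice and -0.42 in HFC replicate 1. All 5 values were below 0, and the shared ratio of -0.47 (limma adjusted p = 0.446, without HFC replicate 2) did not pass. Gsta1 stood 1.13 to 2.20 above Gsta3 on these 5 arrays.

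The 2 pi-class genes measured differed as well. Gstp1, the classic pi-class enzyme, was at 0.82 and 1.56 in lovastatin mice, 1.26 and 0.97 in fenofibrate mice and 1.27 and 1.07 in HFC mice. Gstp3, a neighbouring pi-class gene, was at 0.18 and -0.53 in lovastatin mice, -1.17 and -1.15 in fenofibrate mice and -0.36 and 0.24 in HFC mice. Gstp1 was above 0 on all 6 arrays, and the 2 lowest values of Gstp3 were those of the fenofibrate mice. Gstp1 had a shared ratio of 1.15 (SE 0.147, limma adjusted p = 0.0562) and passed with the blocks put back (limma adjusted p = 0.0397), although its own spot lies outside them. Gstp3 had a shared ratio of -0.64 (SE 0.158, limma adjusted p = 0.235). Close copies of Gstp1 exist in the mouse genome, so its value may hold more than 1 gene. The negative shared ratio of Gstp3 comes mostly from the fenofibrate mice, at a mean of -1.16, which carry a weight of 0.5 and the other dye. Its means were -0.175 in lovastatin mice and -0.06 in HFC mice. Both stretches printed above for these genes hold capitals, which were not tied to these ratios.

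Theta-class enzymes act on small halogenated hydrocarbons and sulfate esters, and the 4 genes measured did not share a direction. Gstt3 was at -0.98 and -0.92 in lovastatin mice, -0.21 and -0.09 in fenofibrate mice and -0.58 and -0.47 in HFC mice. Gstt2 was at 0.70 and 0.21 in lovastatin mice, 0.84 and 0.51 in fenofibrate mice and 0.49 in HFC replicate 1. Gstt3 lay below 0 on all 6 arrays and Gstt2 above 0 on its 5, and the shared ratios were -0.44 (limma adjusted p = 0.206) and 0.57 (limma adjusted p = 0.298). Gstt1 was at -0.28 and -0.25 in lovastatin mice, -0.15 and -0.04 in fenofibrate mice and 0.01 and 0.19 in HFC mice, with a shared ratio of -0.089 (limma adjusted p = 0.807). Gstt4 had 4 values, 1.36 and 0.14 in lovastatin mice, -0.58 in fenofibrate replicate 1 and -0.72 in HFC replicate 1. These spread over more than 2 log2 units, and the shared ratio of -0.28 (95% interval -1.25 to 0.68) has no settled sign.

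The omega, zeta and kappa enzymes do tasks beside detoxification. Gsto1, which reduces dehydroascorbate, was at 0.14 and -0.07 in lovastatin mice, 0.30 and 0.57 in fenofibrate mice and 0.29 and -0.21 in HFC mice. Gsto2, its close relative, was at -0.10 and -0.41 in lovastatin mice, 0.01 and -0.55 in fenofibrate mice and -0.28 in HFC replicate 1. Neither passed, with shared ratios of 0.24 (limma adjusted p = 0.592) and -0.27 (limma adjusted p = 0.633). Gstz1, the maleylacetoacetate isomerase of tyrosine breakdown, was at 0.02 and -0.20 in lovastatin mice, -0.25 and -0.47 in fenofibrate mice and -0.22 and -0.16 in HFC mice, a shared ratio of -0.25 (limma adjusted p = 0.496). Gstk1, an enzyme of mitochondria and peroxisomes, was at -0.15 and -0.27 in lovastatin mice, 0.47 and 0.20 in fenofibrate mice and -0.23 in HFC replicate 1. Of the values used, those of the fenofibrate mice were above 0 and the others below, and the shared ratio was 0.058 (limma adjusted p = 0.895).

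The microsomal glutathione transferases are membrane proteins unrelated in fold to the cytosolic classes. Mgst1, abundant in liver endoplasmic reticulum, was at -0.36 and -0.05 in lovastatin mice, -0.17 and 0.32 in fenofibrate mice and -0.23 and -0.41 in HFC mice. Mgst2, which can make leukotriene C4, was at 2.59 and -0.25 in lovastatin mice, -0.08 and -0.30 in fenofibrate mice and 0.10 and -0.63 in HFC mice. The 2.59 is on the widest array, and the next highest of the 6 values of Mgst2 is 0.10. Mgst3 was at 0.47 and 0.035 in lovastatin mice, 0.475 and 0.505 in fenofibrate mice and -0.11 and 0.105 in HFC mice as the mean of 2 probes, which gave 0.62 and 0.33 on fenofibrate replicate 1. Shared ratios were -0.094 for Mgst1, 0.13 for Mgst2 and 0.31 for Mgst3, with limma adjusted p from 0.444 to 0.924.

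**Figure D3:**
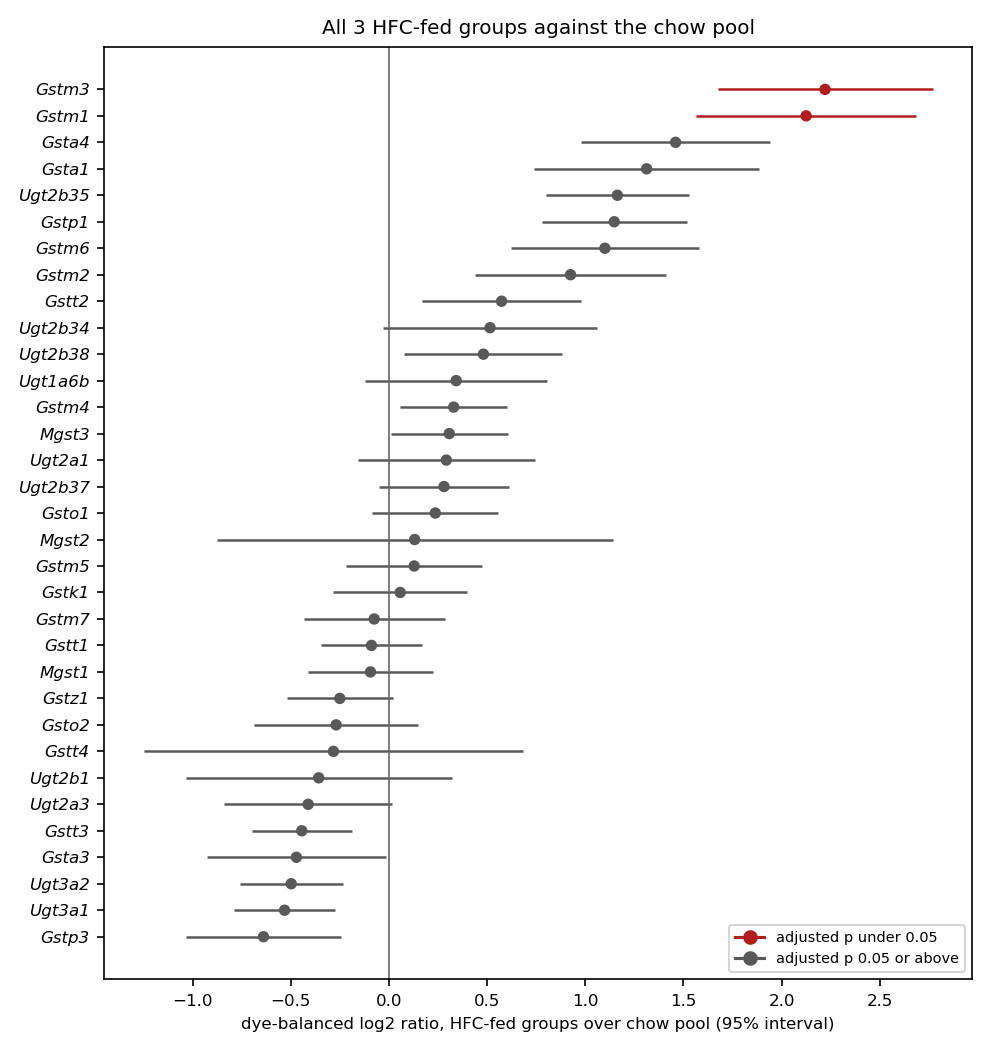
Dye-balanced log2 ratio of the 3 HFC-fed groups over the chow pool (horizontal axis) with its 95% interval for the 33 members, ordered by size. Gstm3 (2.22) and Gstm1 (2.12), in red, passed at an adjusted p under 0.05, and the others, in grey, did not.

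Among the glucuronosyltransferases 0 of 10 passed by limma, against 0.566% of all features. An unadjusted p under 0.05 was reached by 4, against 10.8% of all features. Of these 4 members Ugt2b35 and Ugt2b38 were above 0 and Ugt3a1 and Ugt3a2 below. The Ugt2b enzymes glucuronidate steroids, bile acids and drugs. Ugt2b35 was at 0.66 and 0.84 in lovastatin mice, 1.05 and 1.82 in fenofibrate mice and 1.09 and 0.98 in HFC mice. It was above 0 on all 6 arrays, with a shared ratio of 1.16 (SE 0.145, limma adjusted p = 0.0526) just outside the threshold. It passed with the displaced blocks put back (limma adjusted p = 0.0374) and with quantile normalization (limma adjusted p = 0.0410), where 1.01% of all features passed.

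The other Ugt2b genes were nearer to 0. Ugt2b38 was at 0.25 and 0.68 in lovastatin mice, -0.05 and 0.75 in fenofibrate mice and 0.90 and 0.62 in HFC mice. Ugt2b34 was at -0.15 and 0.51 in lovastatin mice, 0.19 and 0.99 in fenofibrate mice and 0.70 in HFC replicate 1. In these and in all other Ugt1 and Ugt2 members, replicate 2 was the higher array of the lovastatin and of the fenofibrate mice. The shared ratios of Ugt2b38 and Ugt2b34 were 0.48 (limma adjusted p = 0.371) and 0.52 (limma adjusted p = 0.484). Ugt2b37, the mean of 3 probes, was at 0.09 and 0.41 in lovastatin mice, -0.033 and 0.52 in fenofibrate mice and 0.48 and 0.295 in HFC mice. Its 3 probes gave 0.14, 1.07 and 0.35 on fenofibrate replicate 2, a spread wider than that between the groups. Ugt2b1 ran from -1.03 to 0.25 with a shared ratio of -0.36 (limma adjusted p = 0.689).

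Ugt1a6b belongs to the Ugt1 locus, whose enzymes glucuronidate bilirubin and phenols. It was at 0.01 and 0.41 in lovastatin mice, -0.06 and 0.63 in fenofibrate mice and 0.59 in HFC replicate 1, with a shared ratio of 0.34 (limma adjusted p = 0.584). Ugt1 genes share their last exons, so a probe there could read several of them. The Ugt2a genes were split, Ugt2a1 between 0.00 and 0.58 and Ugt2a3 between -0.64 and -0.11, with shared ratios of 0.29 (limma adjusted p = 0.629) and -0.41 (limma adjusted p = 0.477).

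The Ugt3 enzymes use other sugars than glucuronic acid, as known from the human enzymes. Ugt3a1 was at -0.35 and -0.35 in lovastatin mice, -0.49 and -0.53 in fenofibrate mice and -0.67 and -0.84 in HFC mice. Ugt3a2 was at -0.36 and -0.30 in lovastatin mice, -0.48 and -0.54 in fenofibrate mice and -0.53 and -0.75 in HFC mice. Both were below 0 on all 6 arrays, nearest to 0 in lovastatin mice, and differed from each other by 0.01 to 0.14 on an array. The shared ratios were -0.53 for Ugt3a1 (SE 0.102, limma adjusted p = 0.143) and -0.50 for Ugt3a2 (SE 0.104, limma adjusted p = 0.173). They are close relatives and neighbours on chromosome 15, and whether the probes tell them apart was not tested.

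Each group was also set against the pool alone, so the 3 comparisons share that pool. By limma 0 of 33 members passed in lovastatin mice (0% of all features), 0 in fenofibrate mice (0.0617% of all features) and 0 in HFC mice (0% of all features). At an unadjusted p under 0.05 there were 6 members in lovastatin mice, 14 in fenofibrate mice and 12 in HFC mice, or 18.2%, 42.4% and 36.4% of the 33. The same shares over all features were 10.6%, 7.64% and 4.74%. Mean ratios of Gstm1 were 1.65 in lovastatin mice (limma adjusted p = 0.401), 2.08 in fenofibrate mice (0.241) and 2.70 in HFC mice (0.293). Mean ratios of Ugt2b35 were 0.75 in lovastatin mice (limma adjusted p = 0.437), 1.44 in fenofibrate mice (0.220) and 1.03 in HFC mice (0.701). Gstt3 averaged -0.95 ± 0.042 in lovastatin mice, -0.15 ± 0.085 in fenofibrate mice and -0.53 ± 0.078 in HFC mice (SD, n = 2 each). Lovastatin thus had the lowest mean in Gstt3, and the array values of the 3 groups did not overlap. How common such a separation is among all features was not counted. The Gstt3 difference was -0.425 in lovastatin minus HFC (interval -1.02 to 0.17, limma adjusted p = 0.972). In fenofibrate minus HFC it was 0.375 (interval -0.22 to 0.97), where the dye differs as well. Neither difference passed.

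The last comparisons asked whether either drug moved the members away from the HFC level. By limma 0 of 33 members passed for lovastatin against HFC (0% of all features), with 2 at an unadjusted p under 0.05 (6.06% of members, against 388 of all 19447 features). For fenofibrate against HFC 0 of 33 passed (0% of all features), with 1 at an unadjusted p under 0.05 (3.03% of members, 2.88% of all features). The median half-width of the 95% intervals was 1.03 log2 units for lovastatin and 1.02 for fenofibrate. A member whose interval includes 0 is not shown to be at the HFC level. Both comparisons share the HFC arrays, and the fenofibrate one also differs in dye.

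The mean of the lovastatin mice was the lowest of the 3 groups in all 7 mu genes, but in 5 of 7 once the wide array, lovastatin replicate 1, was dropped. Lovastatin replicate 2 was above the fenofibrate mean in Gstm1 (2.38 against 2.08) and in Gstm3 (2.36 against 2.19). Gstm2 showed the widest gap, -1.49 in lovastatin minus HFC (95% interval -2.62 to -0.36, limma adjusted p = 0.972). The difference was -1.07 for Gstm6, -1.05 for Gstm1, -0.83 for Gstm3 and -0.64 for Gstm4, all with a limma adjusted p of 0.972. Without lovastatin replicate 1 these were -0.61 for Gstm6, -0.315 for Gstm1, -0.31 for Gstm3 and -0.52 for Gstm4 (limma adjusted p = 1 for each). Lovastatin replicate 1 was the lowest array in 6 of 7 mu genes and in 14 of 33 members, and its part was not tested beyond leaving it out. How often this widest array, or the lovastatin mean, is lowest among all features was not counted. These counts are therefore not read as a trait of the mu genes. Without lovastatin replicate 1 the difference of Gstm2 was -0.87 (limma adjusted p = 1). The 2 lovastatin arrays differed by a median of 0.91 over the mu genes, against 0.09 between the fenofibrate arrays and 0.35 between the HFC arrays.

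For fenofibrate the gene with the smallest p was Gstp3, at -1.10 in fenofibrate minus HFC (95% interval -2.02 to -0.18, limma adjusted p = 1). Mgst3 followed at 0.49 (95% interval -0.19 to 1.18, limma adjusted p = 1). In Gstp3 both fenofibrate values were below both HFC values, and in Mgst3 both were above them. Both genes were picked by p in this same comparison, so this separation adds no support. Its share over all features was not counted, and the dye differs between the groups. Gstm1 and Gstm3 were -0.61 and -0.48 in fenofibrate minus HFC, with intervals that include 0.

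**Figure D4:**
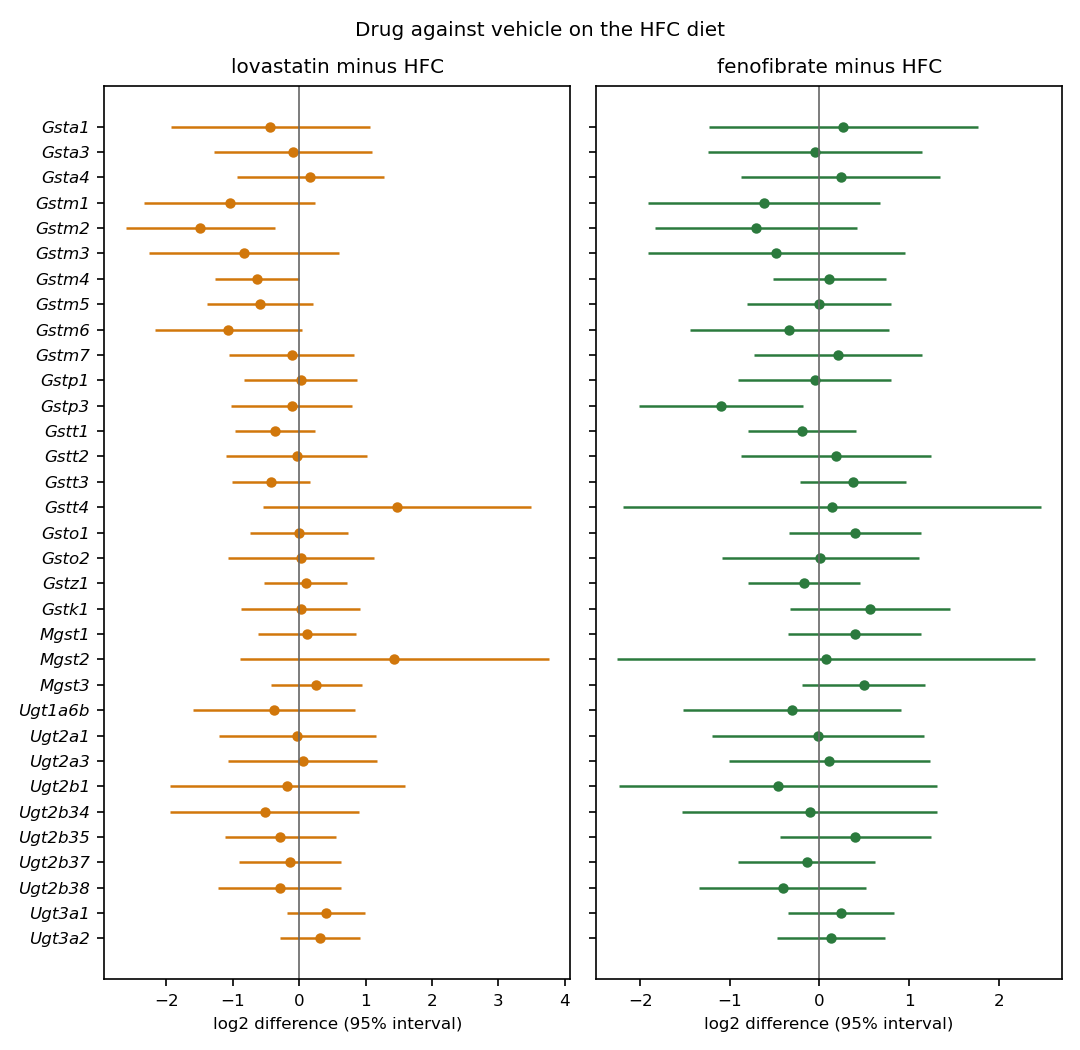
Log2 difference (horizontal axis) between lovastatin and HFC mice (left) and between fenofibrate and HFC mice (right) with its 95% interval, for the 33 members. The mu genes lie left of 0 for lovastatin, down to -1.49 in Gstm2, and none of the 33 differences passed the adjusted threshold in either panel.

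Both enzyme families depend on a supply of their cosubstrates, on exporters and on regulators. Of 11 genes of glutathione synthesis and recycling, 1 rose and 0 fell in the HFC-fed groups against the pool, beside 0.17% and 0.396% of all features called higher and lower. The gene that rose was Gclc, the catalytic subunit of glutamate-cysteine ligase, which sets the rate of glutathione synthesis. It was at 1.2 and 1.63 in lovastatin mice, 1.51 and 1.35 in fenofibrate mice and 1.57 and 1.06 in HFC mice, a shared ratio of 1.40 (SE 0.134, limma adjusted p = 0.0295). Gclm, the modifier subunit of the same enzyme, was at 1.14 and 0.95 in lovastatin mice, 0.72 and 0.53 in fenofibrate mice and 1.09 and 0.97 in HFC mice. All values of both subunits were above 0, and Gclm, at 0.83 (limma adjusted p = 0.0562), did not pass. Gss, glutathione synthetase, had a shared ratio of 0.66 (limma adjusted p = 0.218, without HFC replicate 2). Above 0 lay 10 of the 11 genes, with a list median of 0.23.

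Of 14 regulators and their marker genes, 1 rose and 0 fell, beside 0.17% and 0.396% of all features called higher and lower. The one was Ephx1, microsomal epoxide hydrolase, an enzyme induced with the transferases by the same xenobiotic receptors. It was at 1.08 and 1.30 in lovastatin mice, 1.52 and 1.30 in fenofibrate mice and 1.34 and 1.51 in HFC mice, a shared ratio of 1.36 (SE 0.110, limma adjusted p = 0.0209). The 6 values lay within 0.44 of each other. The calls of Ephx1 and Gclc both ended without either fenofibrate array or either HFC array, at values from 1.30 to 1.46. In each of these fits a group rests on 1 array and calls fell over all features too. With the fenofibrate sign turned, where 0 of 19447 features passed, Ephx1 was at -0.051 (limma adjusted p = 0.939) and Gclc at -0.033 (0.969). With quantile normalization Gclc was at 1.62 (limma adjusted p = 0.0606). Nr1i2, the xenobiotic receptor PXR, was at 0.75 (limma adjusted p = 0.143, without HFC replicate 2), and Nfe2l2, which encodes NRF2, at 0.51 (limma adjusted p = 0.290). Nqo1 was at -0.15 and -0.27 in lovastatin mice, 0.34 and 0.46 in fenofibrate mice and -0.1 and -0.04 in HFC mice. Its shared ratio was 0.13 (limma adjusted p = 0.717). Nr1i3, at -0.28, and Keap1, at -0.085, lay below 0 and did not pass. Of the 14 genes 9 lay above 0 and 5 below, with a list median of 0.094.

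Of 11 conjugate transporters 0 passed by limma. Abcb11, the bile salt export pump, was at 0.57 and 1.10 in lovastatin mice, 0.73 and 0.90 in fenofibrate mice and 1.58 and 1.64 in HFC mice, a shared ratio of 1.02 (limma adjusted p = 0.0513). Slco1b2, which takes organic anions up from blood, had a shared ratio of -0.62 (limma adjusted p = 0.111), with its lowest values, -1 and -0.74, in fenofibrate mice. Abcc3, an exporter of conjugates into blood, had a shared ratio of 0.62 (limma adjusted p = 0.186, without HFC replicate 2). Of 7 genes of UDP-glucuronic acid supply and glucuronide cleavage 0 passed. Slc35d1, which carries UDP-glucuronic acid into the endoplasmic reticulum, was at 0.57 and 0.48 in lovastatin mice, 0.05 and 0.01 in fenofibrate mice and 0.53 and 0.75 in HFC mice. Its fenofibrate values lay below the other 4, and dye and drug cannot be told apart there. Ugp2, which makes UDP-glucose, was at -0.39 (limma adjusted p = 0.398, without HFC replicate 2) and Gusb, which cleaves glucuronides, at 0.40 (limma adjusted p = 0.511).

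**Figure D5:**
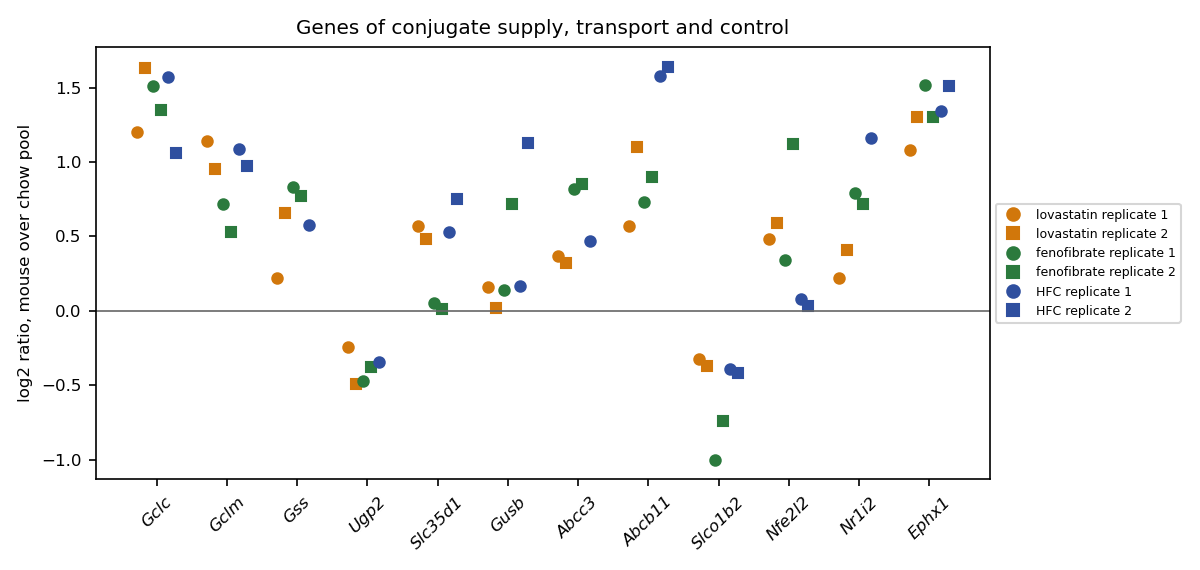
Log2 ratio of mouse over chow pool (vertical axis) for 12 genes of glutathione supply, glucuronic acid supply, transport and control, 1 point per array. Gclc (1.06 to 1.63) and Ephx1 (1.08 to 1.52), the 2 genes that passed, lie above 1 on all 6 arrays.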

How the data were processed

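Liver RNA of 6 mice was measured on 2-colour arrays of 22575 spots. The authors deposited 1 log ratio per spot without stating its base or direction, and it was read as log2 of mouse over pool. The steps from scan to ratio, normalization included, were not given in the labels. Unnamed controls, 561 repeated spots, and 726 spots without a value were left out, leaving 21288 probes; probes with several symbols were not named. Symbols came from the platform annotation, and all 33 members matched RefSeq by gene ID. Probes of a gene were averaged, giving 19517 features, of which 19447 were tested.

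limma 3.58.1 in R 4.3.3 was fitted to all arrays with 1 mean per group (3 residual degrees of freedom), with Benjamini-Hochberg adjustment over all features and a threshold of 0.05, for 6 comparisons. The labels name single mice, 2 a group, and this number of arrays limits the precision. A ratio against the pool leaves out the spread among chow mice. Intervals are 95%. Values were given on every array for called members, for up to 4 members of a family by smallest p, and up to 2 in each drug comparison. The fit was tested on simulated data. The members and lists were chosen with earlier results of these data known. Displaced spots, scaling, probe choice, a noise filter, array weights, group weights, the sign of the fenofibrate arrays, a replicate block and left-out arrays were tried as alternatives. Sequences came from the RefSeq promoter table; proteins were not used here. Figures were drawn with matplotlib 3.10.9 in Python 3.11.15.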

Additional observations from a re-analysis of the deposited data

Results flagged for a closer look

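Gstm4 was below 0 on both lovastatin arrays and above 0 on both HFC arrays, a difference of -0.64 in lovastatin minus HFC that did not pass (limma adjusted p = 0.972). Gstt1 was below 0 on both arrays of each drug and above 0 on both HFC arrays, but by as little as 0.01 on HFC replicate 1 and -0.04 on fenofibrate replicate 2. Its difference was -0.365 in lovastatin minus HFC (limma unadjusted p = 0.181, adjusted p = 0.972). In fenofibrate minus HFC it was -0.195 (limma unadjusted p = 0.447), which did not pass either. The share of all features with such a split of signs was not counted.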

How the results depend on the processing

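Against the 2 members called in the 3 HFC-fed groups together, 1 was called with displaced spots as deposited and 5 with the blocks put back. With the noisiest 10% of features removed 7 were called, and with array weights 6. With the fenofibrate sign turned 0 members and 0 of 19447 features were called. With the replicate number as a block 0 were called and 0 of 19078 features; same-numbered arrays did not deviate together (r from -0.0241 to 0.0311), so the numbers were not taken to pair mice. Setting the repeated probes of HFC replicate 2 missing, chosen after seeing the data, left 2. Leaving out 1 array gave 0 to 8, with 0 without fenofibrate replicate 1, fenofibrate replicate 2, HFC replicate 1 or HFC replicate 2, and 8 without lovastatin replicate 1 or lovastatin replicate 2. Over all features the 110 calls became 67 as deposited, 191 put back, 196 with quantile normalization, 346 without the noisiest features, 230 with array weights and 0 to 966 with 1 array left out. In the other comparisons, where 0 members were called, leaving out 1 array gave 0 to 3 in lovastatin mice (21.2% of all features at its highest), 0 to 2 in fenofibrate mice (0.284%), 0 to 1 in HFC mice (0.0421%) and 0 to 3 in lovastatin against HFC (7.39%), and array weights gave 2 in fenofibrate mice (0.571%). The 3 called without lovastatin replicate 2 were Gstm3, Gstt3 and Mgst2 against the pool and Gstm1, Gstm2 and Mgst2 against HFC. Lovastatin is then 1 array, the widest, assumed to vary like the other groups, and 2.59 is its only Mgst2 value. Gclc and Ephx1 were not called with the replicate block (limma adjusted p = 0.103 and 0.0901).

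With the fenofibrate sign turned, the shared ratio changed sign in Gsta1 (-0.24), Gsta3 (0.00375), Gsta4 (-0.075), Gstk1 (-0.28), Gstm2 (-0.02), Gstm4 (-0.21), Gstm6 (-0.1), Gsto1 (-0.20), Gsto2 (0.00125), Gstp3 (0.52), Gstt1 (0.00625), Gstt2 (-0.10), Gstt4 (0.30), Gstz1 (0.11), Mgst3 (-0.18), Ugt2b34 (-0.075), Ugt2b35 (-0.27) and Ugt3a2 (0.0125), since fenofibrate carries a weight of 0.5. Gstm1 (0.045) and Gstm3 (0.031) kept their sign near 0. Gstk1 was -0.03 as deposited, -0.035 with equal group weights and -0.01 to 0.12 with either fenofibrate array left out. Gstt4 was 0.14 put back, Mgst1 0.029 without fenofibrate replicate 1, and Mgst2 -0.052 with quantile normalization and -0.22 without lovastatin replicate 1, against 0.49 without lovastatin replicate 2. The cause was not tested. With 2 arrays a group and 1 pool, no spread among chow mice was measured, and no spot brightness is used here, so signal near background cannot be told from measured signal.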
